A study of Drosophila melanogaster with 2 samples.

Results

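Divergent gene pairs lie head to head, with a minus-strand gene and a plus-strand gene transcribed away from a shared stretch of DNA. The 288 regions described here were ChIP-seq peaks of the CG16779-eGFP fusion protein whose summit lay at such a pair. They were taken from 2516 peaks on the main chromosome arms that met a threshold of 0.01 on the irreproducible discovery rate (IDR) of 2 biological replicates. The IDR is low for a peak that ranks high, and alike, in both replicates. A peak was kept where its summit was at most 500 bp from a transcription start site (TSS) in the annotation of each of 2 protein-coding genes on opposite strands, with gene 5′ ends that diverged and lay at most 1000 bp apart. Peak signal was not used in this choice beyond the IDR threshold.

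Both replicates formed a single group: whole Drosophila melanogaster embryos, 8 to 24 hours old, of a transgenic strain with an insertion that tags CG16779 with GFP. An anti-GFP antibody was used to recover the fusion from sonicated chromatin of 200 to 800 bp fragments. Per the labels both replicates came from the same fly strain, so they do not sample independent insertions, and the promoter that drove the fusion was not given in the sources used here. Chromatin of all embryonic cell types was mixed, so a weak peak in many cells and a strong peak in few cells cannot be told apart. A control library was not analysed here and read depth is unknown. Signal is the value the authors' peak caller gave a peak, on a scale not given in the sources used here, and is printed per replicate or as mean ± SD (n = 2). There was no second condition, so shares are given with exact 95% binomial intervals that cover counting error only, and no difference between classes of peaks was tested.

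As background, head-to-head pairs are common in the compact fly genome, and many of them hold housekeeping genes with a nucleosome-free stretch between the start sites. Core promoters of such genes often carry the DNA replication-related element (DRE), bound by the factor DREF and, through an overlapping core, by the insulator protein BEAF-32, or the motifs known as Motif 1, Motif 6 and Motif 7. Insulator and interband proteins such as Chromator and CP190 are also known from these sites.

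The gaps between the 5′ ends of 6 strongly bound pairs are shown as examples of a summit near the middle of a short gap, in its AT-rich part. Not all strong peaks had this shape. Of the 20 strongest, 12 had the summit in the gap, 3 inside the minus-strand gene and 5 inside the plus-strand gene. At the strongest, mRpS23/CenG1A, the summit lay 152 bp from the midpoint of a 492 bp gap. An AT-rich middle was also found in pairs without a peak. Each sequence is the plus strand of release 6 of the reference genome (dm6), with no annotated exon in it. It runs from the base after the 5′ end of the minus-strand gene to the base before that of the plus-strand gene. The 21 bases centred on the summit are in capitals. CG7601/CIA30 lay at chr3R:29736746-29736964, Tcs5/CHMP2B at chr3L:5139396-5139618 and Art3/mRpS10 at chr3R:15229409-15229664. CG13390/CG17294 lay at chr2L:8376798-8377034, fws/Lamtor3 at chr2L:17481030-17481230 and brm/Arl1 at chr3L:15982870-15983134.
CG7601/CIA30: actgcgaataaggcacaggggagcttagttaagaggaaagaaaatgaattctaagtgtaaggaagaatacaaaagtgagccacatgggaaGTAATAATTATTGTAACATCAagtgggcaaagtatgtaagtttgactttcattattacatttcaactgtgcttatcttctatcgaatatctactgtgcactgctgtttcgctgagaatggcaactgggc
Tcs5/CHMP2B: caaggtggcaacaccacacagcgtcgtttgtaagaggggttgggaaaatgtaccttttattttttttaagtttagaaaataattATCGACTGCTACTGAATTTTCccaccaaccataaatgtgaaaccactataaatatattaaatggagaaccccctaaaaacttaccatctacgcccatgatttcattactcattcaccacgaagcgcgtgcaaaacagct
Art3/mRpS10: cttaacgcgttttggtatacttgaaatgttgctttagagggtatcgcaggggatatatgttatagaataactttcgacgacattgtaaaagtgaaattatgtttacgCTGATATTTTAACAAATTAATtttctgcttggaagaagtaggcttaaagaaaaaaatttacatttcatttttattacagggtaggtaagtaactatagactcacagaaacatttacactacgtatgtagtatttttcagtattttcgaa
CG13390/CG17294: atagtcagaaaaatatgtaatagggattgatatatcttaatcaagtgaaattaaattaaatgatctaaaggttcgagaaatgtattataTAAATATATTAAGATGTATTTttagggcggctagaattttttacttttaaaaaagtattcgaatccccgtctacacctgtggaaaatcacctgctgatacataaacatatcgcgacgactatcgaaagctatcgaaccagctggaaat
fws/Lamtor3: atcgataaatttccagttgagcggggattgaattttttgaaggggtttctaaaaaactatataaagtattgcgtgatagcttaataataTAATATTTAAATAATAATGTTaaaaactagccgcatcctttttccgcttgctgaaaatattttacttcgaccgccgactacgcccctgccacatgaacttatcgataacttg
brm/Arl1: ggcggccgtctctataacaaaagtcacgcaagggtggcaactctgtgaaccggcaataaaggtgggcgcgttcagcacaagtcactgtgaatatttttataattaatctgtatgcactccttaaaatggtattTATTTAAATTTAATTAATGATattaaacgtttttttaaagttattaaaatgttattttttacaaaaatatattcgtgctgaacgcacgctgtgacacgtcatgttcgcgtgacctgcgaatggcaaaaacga

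In these sequences the summit of CG7601/CIA30 stood 9 bp from the midpoint of the paired 5′ ends, and that of fws/Lamtor3 stood 1 bp from it. With each gap split into 3 equal parts, the middle part of brm/Arl1 had a GC content of 15.9%, against 54.5% in the first and 39.3% in the last. In Art3/mRpS10 the middle part had 23.5% GC, against 37.6% in the first and 29.1% in the last. CG13390/CG17294 differed in shape, with 24.1% GC in the first part, 25.3% in the middle and 43.0% in the last.

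The annotation held 2294 distinct divergent pairs of 5′ ends up to 1000 bp apart, from 2435 gene pairs and 4648 genes. A CG16779-eGFP peak lay at 289 of these pairs of 5′ ends (12.6%, interval 11.3 to 14.03%). Their 596 genes were 12.8% of the genes in divergent pairs, beside 11.3% (1583 of 13968) of all protein-coding genes with a summit within 500 bp of a TSS, by a looser rule that asks for 1 gene only. A single gene pair was near 274 of the 288 peaks, and 14 peaks had several in reach, up to 21 at the annotated pre-mod(mdg4) gene fragments. At 6 peaks a TSS of a noncoding gene was also within 500 bp. By arm, the share of pairs with a peak was 13.7% (62 of 452) on 2L, 10.3% (47 of 456) on 2R, 16.3% (74 of 453) on 3L and 13.7% (78 of 570) on 3R. On X it was 7.89% (28 of 355, interval 5.30 to 11.2%), and none of the 8 pairs on chromosome 4 had a peak.

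The share of pairs with a peak varied with how far apart the 5′ ends were. It was 15.5% (54 of 349, interval 11.8 to 19.7%) for 5′ ends up to 100 bp apart and 12.9% (40 of 309, interval 9.41 to 17.2%) at over 100 and up to 200 bp. At over 200 and up to 300 bp it was highest, 22.0% (103 of 469, interval 18.3 to 26.0%). It was 12.9% (74 of 574, interval 10.3 to 15.9%) at over 300 and up to 500 bp, and 3.04% (18 of 593, interval 1.81 to 4.75%) above 500 bp. The rule leaves less room for a summit in a wide gap, since it must be near a start site of both genes: the median length that qualified was 943 bp a pair in the narrowest class and 321 bp in the widest. Per 100 kb of qualifying sequence there were 16.4, 15.2, 29.7, 20.4 and 10.2 peaks from the narrowest to the widest class, so the class of up to 300 bp again stood highest.

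**Figure D1:**
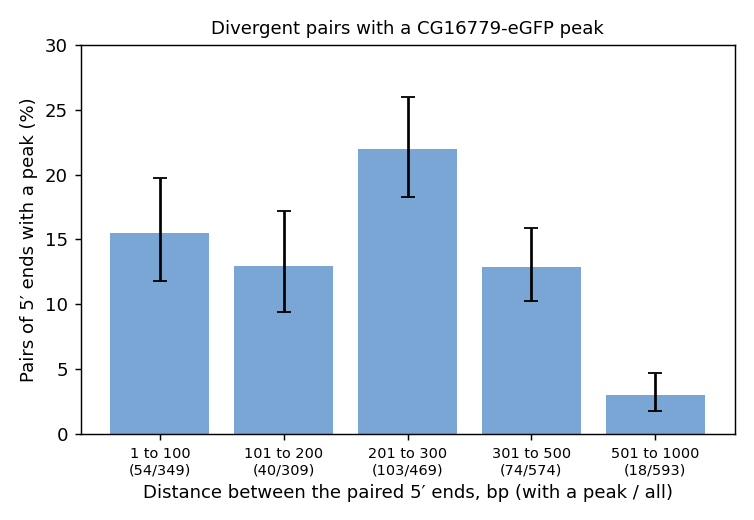
Percent of distinct divergent pairs of 5′ ends with a CG16779-eGFP peak, by distance between the 5′ ends in bp; error bars are exact 95% binomial intervals. Pairs over 200 and up to 300 bp apart reached 22.0%, and pairs over 500 bp apart 3.04%.

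The name of a divergent-pair peak does not mean that the summit lies between the genes: 196 of 288 summits (68.1%, interval 62.3 to 73.4%) lay between the paired 5′ ends, 47 lay inside the minus-strand gene and 45 inside the plus-strand gene. Of all summits, 147 lay on the plus-strand side of the midpoint and 139 on the minus-strand side. Position varied with the width of the gap. None of the 22 summits at 5′ ends up to 50 bp apart lay between them, whereas 87 of 104 did at over 200 and up to 300 bp. Above 500 bp the rule admits no summit outside the gap, so the 18 there say nothing of position. A median of 73.5 bp separated the summit from the nearer gene 5′ end, and the distance changed little with gap width up to 500 bp: 63.5 bp for gaps up to 100 bp, 70.5 bp up to 200 bp, 76 bp up to 300 bp and 61 bp up to 500 bp, each class starting where the one before it ends. The widest of these classes had summits to one side, at a median of 147 bp from the midpoint, against 62.8 bp in the class of up to 300 bp.

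**Figure D2:**
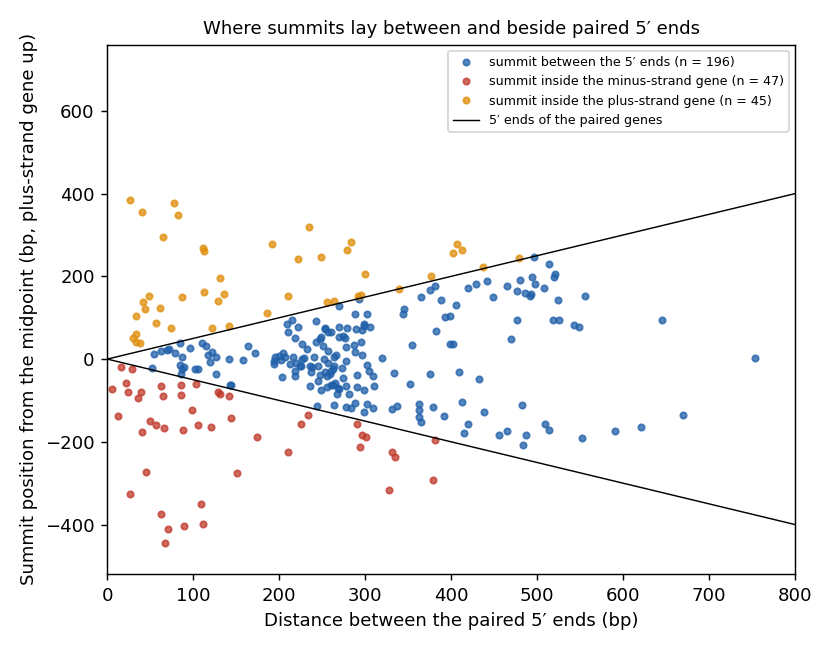
Summit position from the midpoint of the pair (bp, vertical) against the distance between the paired 5′ ends (bp, horizontal) for 288 peaks; the black lines mark the 5′ ends. Points between the lines are the 196 summits in a gap, and the 47 and 45 points beyond them lie inside the minus-strand and the plus-strand gene.

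The strength of the peaks spanned 31.7 to 426, with a median of 49.5. Divergent-pair peaks resembled other promoter peaks with a summit upstream of the TSS, whose median was 49.9 (n = 626), and both stood above promoter peaks with a summit downstream of the TSS (median 41.3, n = 477) and peaks over 500 bp from any TSS (median 40.1, n = 1125). Among the 251 strongest of all 2516 peaks were 42 divergent-pair peaks (14.6% of them, interval 10.7 to 19.2%), 16.1% of the upstream promoter peaks, 3.77% of the downstream ones and 8.00% of those away from a TSS.

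A summit in the own thresholded list of each replicate lay within 100 bp of 130 divergent-pair peaks (45.1%, interval 39.3 to 51.1%), against 30.9% of all 2516 peaks. The share was 42.2% for upstream promoter peaks, 23.5% for downstream ones and 24.1% away from a TSS. Replicate 1 alone gave 28 more divergent-pair peaks, replicate 2 alone 48, and 82 (28.5%) were in neither own list. An IDR of at most 0.001 was reached by 141 (49.0%, interval 43.0 to 54.9%), against 35.4% of all peaks. Signal was higher in replicate 2 at 174 of 288 peaks, with a median log2 ratio of replicate 2 to replicate 1 of 0.12 (SD over peaks 0.41), against -0.03 at other promoter peaks and 0.04 away from a TSS.

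**Figure D3:**
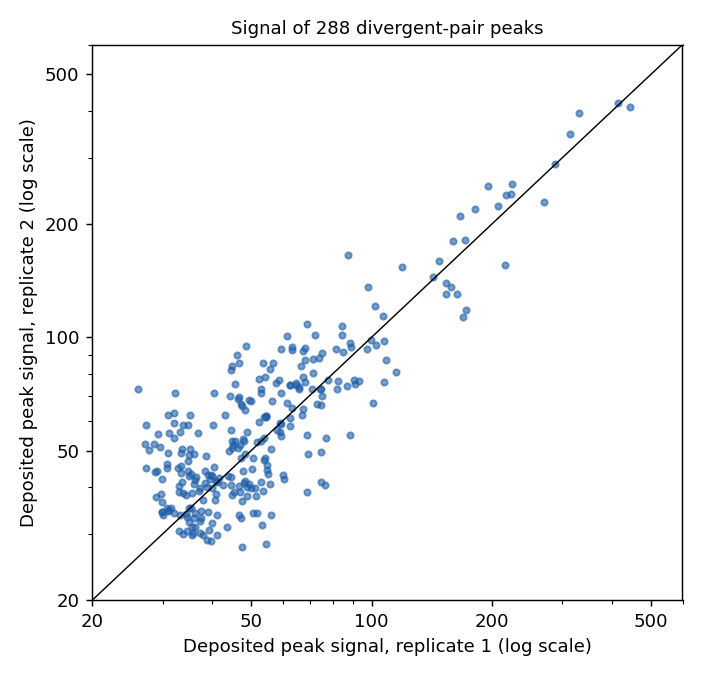
Deposited signal of each of the 288 divergent-pair peaks in replicate 1 (horizontal) and replicate 2 (vertical), both on log scales; the line marks equal signal. Points above the line are the 174 peaks with a higher signal in replicate 2.

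The 20 strongest peaks were each called in both replicates alone and differed between replicates by at most 1.39-fold, with the higher value in replicate 2 at 14 of them. In 12 the summit lay in the gap, in 3 inside the minus-strand gene and in 5 inside the plus-strand gene, and 9 had 5′ ends over 200 and up to 300 bp apart. The strongest of all, at mRpS23/CenG1A (FBgn0260407 and FBgn0028509, peak chr2L:13835347-13835585), had a signal of 443.9 in replicate 1 and 408.6 in replicate 2. mRpS23 encodes a protein of the small subunit of the mitochondrial ribosome, and its summit lay 94 bp from the nearest CenG1A start and 398 bp from that of mRpS23, at a gap of 492 bp. Next came CG7601/CIA30 (FBgn0027583 and FBgn0039689), with 413.2 in replicate 1 and 419.8 in replicate 2. CIA30 is an assembly factor of respiratory complex I.

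**Figure D4:**
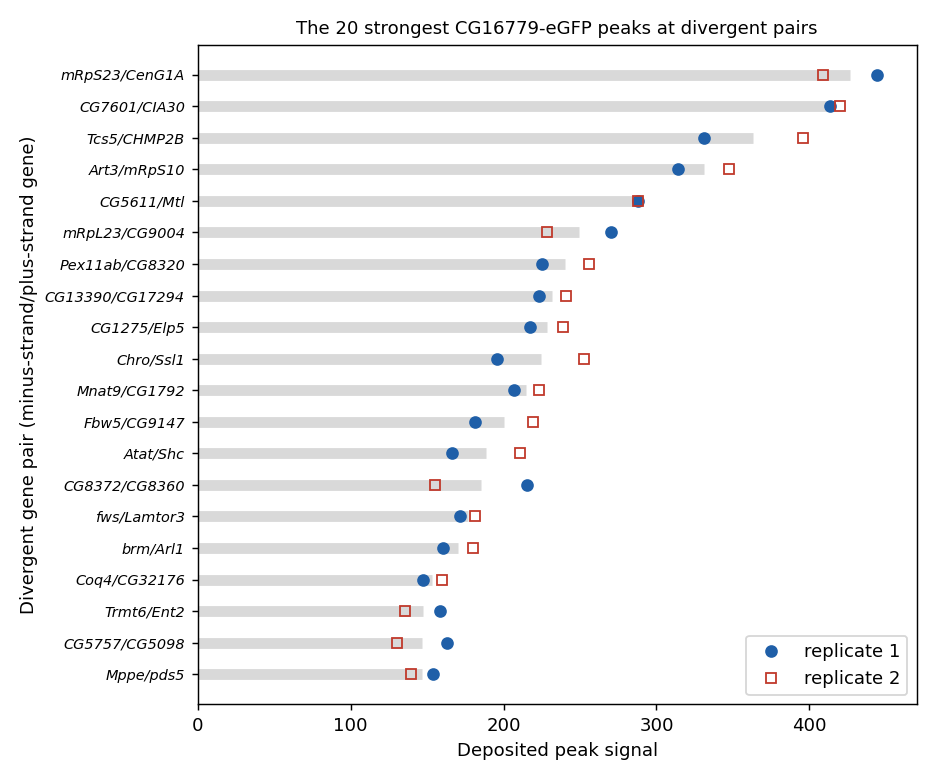
Deposited signal of the 20 strongest divergent-pair peaks in replicate 1 (filled circles) and replicate 2 (open squares), with grey lines to the mean; pairs are named minus-strand gene first. The means run from 426 at mRpS23/CenG1A to 147 at Mppe/pds5.

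Some other strong pairs also held a gene for a mitochondrial protein. Art3/mRpS10 had 314.2 and 347.4 in replicates 1 and 2, and mRpL23/CG9004 had 270.6 and 228.4. The mRpL23 summit lay inside that gene, 41 bp from its nearest start, at 5′ ends 24 bp apart. Coq4, of coenzyme Q synthesis, shared a gap of 247 bp with CG32176 and a peak of 147.1 and 159.7. Mkk4/SLIRP2, just below the 20 strongest, had 142.1 and 144.7 (mean 143 ± 1.83).

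Genes of tRNA modification were also there. Tcs5, a kinase that takes part in a universal tRNA modification, was paired with CHMP2B, a subunit of the membrane-cutting complex ESCRT-III, and their peak had 330.8 in replicate 1 and 395.5 in replicate 2. Elp5, of the Elongator complex, was paired with CG1275, with 217.6 and 239.0, at 5′ ends 33 bp apart. Trmt6, of a tRNA methyltransferase, was paired with Ent2, a nucleoside transporter, with 158.4 and 135.8. The Tcs5/CHMP2B summit lay in the gap, that of CG1275/Elp5 inside Elp5 and that of Trmt6/Ent2 inside Trmt6.

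Chromatin and transcription genes were present in strong pairs with summits in the gap or inside the minus-strand gene. Chro, which encodes the interband protein Chromator, was paired with Ssl1, which encodes a TFIIH subunit, and the peak of 195.5 and 252.9 lay inside Chro. The ATPase gene brm, of the Brahma remodelling complex, was paired with Arl1, a small GTPase of the Golgi, with 160.2 and 180.0. The 50 bp on either side of its summit had a GC content of 13.9%, the lowest of the 20. Mppe/pds5, where pds5 encodes a cohesin cofactor, had 154.0 and 139.2.

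Some of the other strong pairs held genes of signalling, the cytoskeleton and membranes. CG5611/Mtl, where Mtl encodes a GTPase of the Rac kind, had nearly the same signal in both replicates, 287.98 and 288.1. Pex11ab/CG8320 had 225.1 and 255.6, and CG13390/CG17294 had 222.9 and 240.6. Atat/Shc joins an alpha-tubulin acetyltransferase and a receptor adaptor, and its summit, with 166.3 and 210.8, lay exactly at the midpoint of 252 bp. fws/Lamtor3, with 171.8 and 181.1, was at 1 bp from the midpoint; fws encodes a Golgi tethering protein and Lamtor3 a lysosomal scaffold. The remaining 4 of the 20 were Mnat9/CG1792, Fbw5/CG9147, CG8372/CG8360 and CG5757/CG5098, with CG8372/CG8360 the least even at 215.5 in replicate 1 and 155.4 in replicate 2.

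At the weak end, klar/BORCS6 had 33.0 and 30.5, Prx6a/Sbat 33.7 and 29.9, and Ythdc1/CG12010 30.1 and 33.8. The least even peaks had mean signals from 41.3 to 58.6, on both sides of the median. alpha-Man-Ib/Pdhb, where Pdhb encodes a subunit of pyruvate dehydrogenase, had 26.0 in replicate 1 and 72.9 in replicate 2, a ratio of 2.81. mgr/Irbp, where Irbp encodes the DNA end-binding protein Ku70, had 32.3 and 70.9, and hdm/Ykt6 had 27.3 and 58.6. In the other direction Alg1/tinc had 54.4 and 28.2, a ratio of 0.519, IntS9/CG43295 had 76.7 and 40.5, and CG17271/RpS20 had 74.8 and 41.2.

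Lists of genes by function were counted over their members in divergent pairs, beside 12.8% of all genes in such pairs; 162 of 887 listed genes (18.3%) had a peak and 434 of the 596 genes at a peak were in none of the 22 lists. The lists were drawn up with earlier results of these data known, so their counts are descriptions. Genes were put in a list by symbol, so a list can miss genes of its function. A gene could be in more than 1 list, as fws was in those of vesicle traffic and of the cell cycle. Cytoplasmic ribosomal protein genes stood highest: 23 of 52 (44.2%, interval 30.5 to 58.7%) had a divergent-pair peak. A high share of these genes was not particular to divergent pairs. By the looser rule that asks for 1 gene only, 50 of all 86 (58.1%) were at a peak, beside 11.3% of all protein-coding genes. At their 24 divergent-pair peaks the median signal was 60.4, and 14 of these peaks had been called in both replicates alone. The strongest were RpL7 with Ripalpha (154.0 in replicate 1 and 130.3 in replicate 2), RpS27 with Nup37 (169.5 and 112.9) and RpL14 with Nelf-E (119.3 and 153.7). The 5′ ends of RpS27 and Nup37 lay 144 bp apart and those of Nelf-E and RpL14 127 bp.

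Genes of membrane traffic and of the endoplasmic reticulum also had shares above 12.8%. Of vesicle, ESCRT and lysosome genes 27 of 119 (22.7%, interval 15.5 to 31.3%) had a peak, with CHMP2B, fws, Lamtor3 and Arl1 the strongest. Of glycosylation, GPI anchor and endoplasmic reticulum genes 13 of 53 (24.5%, interval 13.8 to 38.3%) had one, led by Mppe (147 ± 10.5), EMC6 with Hr96 (98.1 ± 24.5) and PIG-F with Lon (95.7 ± 15.9). For chromatin, Polycomb and trithorax genes the count was 15 of 64 (23.4%, interval 13.8 to 35.7%), which included Chro, brm and pds5 but also E(z), the methyltransferase of Polycomb repressive complex 2, with 29.2 in replicate 1 and 55.4 in replicate 2, and Cp190 at 68.2 and 87.3.

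Mitochondrial ribosomal protein genes had a peak in 9 of 57 (15.8%, interval 7.48 to 27.9%), with a median signal of 77.9. Of their 9 peaks 4 were below the median of all divergent-pair peaks, and 5 were called in both replicates alone. For oxidative phosphorylation and assembly it was 9 of 45 (20%, interval 9.58 to 34.6%), led by CIA30, Coq4 and Coq3. By the looser rule 12 of all 102 genes of that list (11.8%) were at a peak, beside 11.3% of all protein-coding genes. For tRNA ligases and tRNA modification the count was 8 of 48 (16.7%), of which 7 peaks were in both own lists. For RNA polymerases and general transcription it was 10 of 61 (16.4%). Mediator had 4 of 20, led by MED30 with Rev1 (80.9 ± 18.1), autophagy 4 of 16, led by Atg2 with CG12093 (75.4 ± 12.2), mitochondrial import and related factors 4 of 14, and nuclear pore and transport 5 of 30. Ribosome biogenesis had 5 of 28, led by Ns2 with POSH (65.4 ± 16.1).

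Shares near or below 12.8% were found for pre-mRNA splicing (5 of 38), translation factors (3 of 31), DNA replication and repair (6 of 58), cell cycle and mitosis (4 of 42) and the proteasome and ubiquitin system (6 of 66). These shares hold for the listed symbols only. SNRPG, Phf5a and BCAS2, for example, were at a peak but not in the splicing list. Their strongest were snRNP-U1-C with gukh (66.0 ± 27.4), GatA with P5cr (99.0 ± 0.865), Rev1 with MED30, fws with Lamtor3, and Fbw5 with CG9147 (200.4 ± 26.8). Of 79 neuronal genes 12 lay in divergent pairs, and of 34 muscle genes 8, beside 4648 of all 13968 protein-coding genes. Of the 12 neuronal genes, 4 had a peak (33.3%, interval 9.92 to 65.1%), led by dpr14 with spidey (65.9 ± 1.99). That share was above 12.8%, but it rests on few genes and its interval is wide. Of 8 muscle genes in pairs 1 had a peak, mbc with Nup98-96 (32.5 ± 2.86). None of 13 cuticle protein genes (interval up to 24.7%) and none of 22 chemosensory receptor genes (interval up to 15.4%) in pairs had a peak. In 15 divergent pairs both genes were in the same list, and 1 of them, fws/Lamtor3, had a peak.

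Of the bound pairs, 2 held 2 peaks each. At CG6550/Mtap the summits lay 401 bp apart, the first in the gap with 43.0 in replicate 1 and 62.1 in replicate 2, and the second inside Mtap with 27.1 and 51.96. At RpL34b/CG8132 both peaks, 200 bp apart, carried the same signals of 62.4 and 74.5. Both had therefore been matched to the same peak of each replicate, and they count as 1 observation. BCAS2/RpL4 and trem/idc were likewise matched to replicate peaks that another peak of the list also used, which makes 4 such divergent-pair peaks of 288.

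Divergent-pair peaks lay in AT-rich sequence. The median GC content within 50 bp of the summit was 37.6%, against 41.6% at upstream promoter peaks, 51.5% at downstream ones and 43.6% away from a TSS. Averaged in 21 bp windows, GC was 37.7% at the summit and 43.3% at 250 bp from it. Other promoter peaks, with upstream and downstream ones in the same set, had the opposite profile, with 45.0% at the summit and 41.6% at 250 bp. Whether the upstream ones alone had this profile was not tested. Pairs without a peak rose as divergent-pair peaks did, from 33.1% at the midpoint to 42.9% at 250 bp. GC was lower at the 196 summits between the 5′ ends (median 35.6%) than at the 92 inside a gene (43.6%). It also went with strength: the median was 32.2% in the 72 strongest divergent-pair peaks, 36.6% and 40.6% in the next sets of 72, and 42.6% in the 72 weakest. The rank correlation of signal with GC was -0.28 over the 288 peaks, beside -0.38 at other promoter peaks (n = 1103) and -0.47 away from a TSS (n = 1125). These peaks share libraries and any dependence of the assay on base composition, whose part in the result was not tested.

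**Figure D5:**
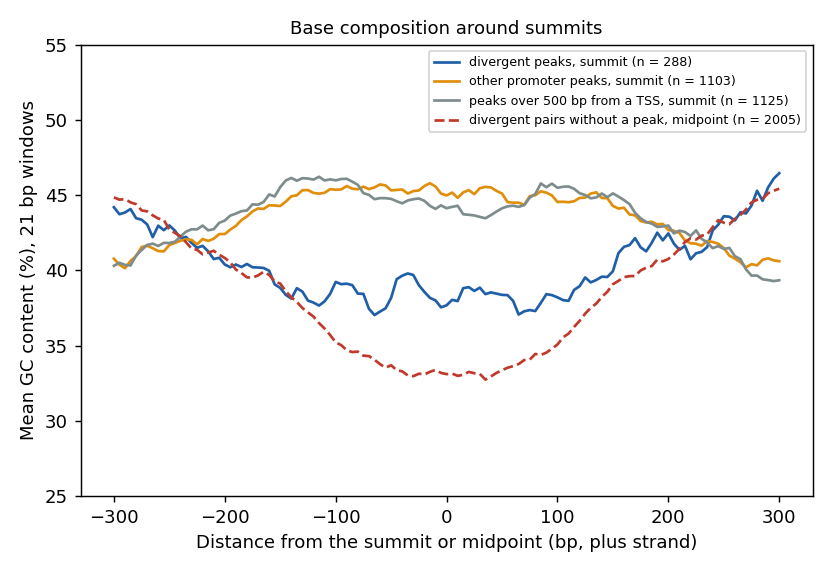
Mean GC content (%) in 21 bp windows against distance (bp) from the summit of divergent-pair peaks, other promoter peaks and peaks away from a TSS, and from the midpoint of divergent pairs without a peak. Divergent-pair peaks have 37.7% at the summit and pairs without a peak 33.1% at the midpoint.

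Pairs without a peak had the AT-rich middle too. With 5′ ends over 200 and up to 300 bp apart, the median GC content of the first, middle and last of 3 equal parts of the gap was 39.1%, 25.7% and 38.7% in the 103 pairs with a peak, and 38.7%, 26.1% and 36.8% in the 366 without. For 5′ ends up to 500 bp apart the middle part had 26.0% with a peak and 27.2% without, and for those up to 200 bp apart 37.2% with and 38.9% without. Over all widths, GC fell to 33.1% at the midpoint of the 2005 pairs without a peak, below the 37.7% at the summits, which often lay off the midpoint.

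Core promoter motifs were searched on both strands, no motif holding another, and a match is a description, not a binding site. The DRE, spelled TATCGATA, lay within 50 bp of 17 of 288 divergent-pair summits (5.90%, interval 3.48 to 9.28%), against 1.90% of other promoter summits and 0.178% of those away from a TSS. Midpoints of pairs without a peak had it in 4.74% and windows of the same size at all gene 5′ ends in 5.56%. Over the whole gap it was present in 52 of 289 pairs with a peak (17.99%) and 359 of 2005 without (17.91%). In both sets it lay near the starts, at a median of 36 bp from the nearer 5′ end with a peak and 35 bp without. None of the 17 summits with a DRE was among the 20 strongest peaks, though at a share of 5.90% few would be among any 20. Atat/Shc and fws/Lamtor3, both among the 20 strongest, did hold a DRE in the gap, over 50 bp from the summit. The highest of the 17 was RpL19/CG3776 with 71.2 and 87.3.

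The sequences around 3 of these DREs are shown because the match there sits in the gap of genes of protein synthesis and secretion, with the summit 5.5 bp away at RpS25, 21.5 bp at eIF3a and 26.5 bp at Sec63, measured from the centre of the match. The DRE is in capitals, and each is the plus strand of dm6 at chr3R:11216319-11216366, chr3R:4433906-4433953 and chr3L:7360500-7360547.
RpS25/CG4820: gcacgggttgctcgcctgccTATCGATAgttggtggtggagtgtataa
eIF3a/CG1074: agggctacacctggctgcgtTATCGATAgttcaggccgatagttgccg
pst/Sec63: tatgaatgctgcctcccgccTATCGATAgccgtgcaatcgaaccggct

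The summit signals there were 59.4 and 58.7 in replicates 1 and 2 at RpS25/CG4820, 60.5 and 42.1 at eIF3a/CG1074, and 39.7 and 43.1 at pst/Sec63. Their means, 59.0, 51.3 and 41.4, lay on both sides of the median of 49.5.

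Motif 7, searched as the cores CATCNCTA, CATCNCTG, CAGCNCTA and CAGCNCTG, was the most frequent of the 9 motifs at divergent-pair summits, 41 of 288 (14.2%, interval 10.4 to 18.8%). It was present at 9.34% of other promoter summits, 3.02% away from a TSS, 6.68% of midpoints of pairs without a peak and 10.9% of gene 5′ ends. In gaps with 5′ ends over 200 and up to 300 bp apart it was in 34.0% with a peak and 28.7% without. In the narrower class down to 100 bp the shares were 22.5% with and 16.7% without, in the class up to 500 bp 37.8% with and 32% without, and above that 38.9% with and 28.2% without. The GAGA motif GAGAGAG was in none of the 288 summit windows (interval up to 1.27%). It was at 3.54% of other promoter summits, 1.20% of gene 5′ ends and 30 of 2005 midpoints of pairs without a peak. Some whole gaps with a peak did hold it. At 5′ ends over 100 and up to 200 bp apart the counts were 1 of 40 with a peak and 21 of 269 without. They were 0 of 103 with and 6 of 366 without up to 300 bp. Up to 500 bp they were 3 of 74 with and 10 of 500 without, and above that 1 of 18 and 57 of 575.

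The other motifs had shares at divergent-pair summits within a few percentage points of those elsewhere, which at such low shares can still be a several-fold difference. Motif 1 (GGTCACAC) was at 1.74% of divergent-pair summits, 1.09% of other promoter summits and 5.58% of gene 5′ ends. Motif 6 (GTATNTTT) was at 4.51%, 3.90% and 4.89% of the same sets, the A tract AAAAAAAA at 4.51%, 4.26% and 4.03%, and the ETS core CCGGAA at 4.17%, 3.81% and 2.86%. The E-box CACGTG was at 1.74%, 1.18% and 1.98%. The E-box CAGCTG was at 6.60% of divergent-pair summits, 4.44% of other promoter summits and 9.33% of gene 5′ ends. Midpoints of pairs without a peak had Motif 1 in 2.84%, Motif 6 in 7.18%, the A tract in 6.68% and the ETS core in 1.80%. They had CACGTG in 0.449% and CAGCTG in 6.18%. In whole gaps with 5′ ends over 200 and up to 300 bp apart, CAGCTG was in 27 of 103 with a peak (26.2%, interval 18.04 to 35.8%) and 58 of 366 without (15.8%, interval 12.3 to 20%). The other classes differed less or the other way: 15% with a peak and 13.01% without for 5′ ends over 100 and up to 200 bp apart, 21.6% with and 16.8% without up to 500 bp, and 16.7% with and 21.7% without above 500 bp. Of the 20 strongest peaks, 4 had any of the 9 motifs within 50 bp of the summit. The same count is not given for all divergent-pair peaks, so it is not known whether this is few or many.

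At the edges of the rule, the peaks just inside the 500 bp limit were RN-tre/mam at 495 bp from the farther TSS (34.9 in replicate 1 and 32.3 in replicate 2), fs(2)ltoPP43/sick at 488 bp (40.5 and 36.8) and CG12929/RpL31 at 484 bp (53.7 and 47.2). Just outside lay tank/CG12194, 1 bp beyond the limit, with a high signal of 228.0 and 236.0, Nbr/Noc2 at 506 bp (43.2 and 52.6) and CG11658/Ccdc56 at 507 bp (44.8 and 58.7). The widest gaps with a peak were those of Glyat/Tg (753 bp), Nepl19/Nepl20 (670 bp) and dpr14/spidey (645 bp). The narrowest were CG3032/CG4593 (6 bp), CG2004/CG1785 (12 bp) and E(z)/Cnep1r2 (16 bp). Of the genes at a peak, 182 of 596 (30.5%) had no name but a CG number, against 35.4% of the other genes in divergent pairs.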

How the data were processed

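Peak lists were used as deposited by the authors on dm6. Per the descriptions deposited with them, thresholded lists were made from replicate 1 against replicate 2 (the conservative list, 2517 peaks, 2516 on the arms), from pooled reads (2705) and for each replicate alone (1197 and 1246). No aligner, peak caller or control treatment is given in the sources used here. The deposited signal value was used to describe and rank peaks; signal per replicate came from 2 unnamed columns of the ranked joint list of 136703 peaks, settled by exact matches to the own list of replicate 1 (106479 peaks) and of replicate 2 (107258), with 0 matches to the other replicate. Stricter thresholds used the −log10 IDR that the authors deposited.

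Genes and TSSs are those of Ensembl release 115; bases were read from genome release 6. A peak was assigned to the gene pair with the smallest summed distance of its summit to a TSS of each gene. GC content and motifs were taken within 50 bp of the summit (motifs also in the gap) and own-list summits within 100 bp. Python 3.11.15, numpy 2.4.6 and scipy 1.17.1 were used, and the rule was tested on simulated summits. The members, gene lists and motifs were chosen with earlier results of these data known.

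Peaks were named by a rule: the 20 strongest, the 3 weakest, the 3 with the largest and the 3 with the smallest replicate ratio, pairs with several peaks, the 3 narrowest and 3 widest gaps, pairs within 1 list, and up to 3 per list. E(z), Cp190, RpL19/CG3776, BCAS2/RpL4 and trem/idc, and the DRE examples, fall outside it or were chosen after their values were seen. Alternatives were other peak lists, IDR thresholds, distances and signal columns.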

Additional observations from a re-analysis of the deposited data

How the results depend on the processing

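Of 38 alternatives of the 5 summary results, 21 stayed within 1.5 times the count or within the replicate spread. The peak list set the counts: the own list of a single replicate gave 166 to 196 divergent-pair peaks and 167 to 194 pairs, with a median signal of 63.9 to 67.8, and the list from pooled reads gave 306 peaks. An IDR of at most 0.001 left 141 peaks at 141 pairs, with a median signal of 71.8 and 85.8% in both own lists. A TSS distance of 250 bp gave 169 peaks, 171 pairs, a median signal of 55.8 and 74.6% of summits between the 5′ ends. One of 1000 bp gave 454 peaks, 39.2% in both own lists and 53.3% of summits between the 5′ ends. The signal column of the conservative list had a median of 98.5, and replicate 2 alone 53.0. With 5′ ends up to 500 bp apart 270 peaks remained, and a limit of 2000 bp, not counted here, cannot add any, since the TSS distance already holds the 5′ ends within 1000 bp. Without depth or a control, it is not known which unbound pairs were within reach of detection. No paired analysis was possible because both replicates form a single group.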
